A study of Mus musculus with 75 samples.

Results

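The comparison described here sets haematopoietic stem cells (HSC) of Kmt2c knockout mice against those of wild-type mice, both after the vehicle phosphate-buffered saline (PBS). It uses every gene of 8 RNA-seq libraries, 4 ko and 4 wt, out of 75 libraries in the series, and the libraries were chosen by their labels alone. The ko libraries come from mice with floxed Kmt2c alleles and a Cre transgene (Kmt2c f/f; Vav-Cre), and the wt libraries are labelled wild type with no mention of Cre. All mice of both groups were 8 weeks old and received PBS for 3 days. The same contrast exists in 8 further HSC libraries, 4 ko and 4 wt, sequenced in the other experiment of the series from untreated mice of the same age and labelled genotypes. The Vav promoter drives Cre throughout the blood system, so every blood cell descended from a recombined stem cell lacks the floxed segment as well. Because the labels name Vav-Cre for ko only, loss of Kmt2c and presence of Cre cannot be told apart. The labels do not say whether each replicate is its own animal; the p-values therefore speak of variation among these libraries, part of which may be technical. The sources used here do not give the antibodies or gates of the sort.

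Kmt2c, also called MLL3, is a histone methyltransferase that places a single methyl group on H3K4, a lysine of histone H3, at enhancers. It acts as part of a large complex with the demethylase Kdm6a. The complex is built around either Kmt2c or its close relative Kmt2d, and the mark lies where transcription factors open distal elements. In blood, Kmt2c is known as a tumour suppressor lost with deletions in myeloid leukaemia, and HSC that lack it have been described with enhanced self-renewal. HSC are rare, mostly quiescent cells of the bone marrow, and their libraries can carry RNA of other marrow cells.

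The identity of the cells was checked against haematopoietic progenitor cells (HPC) sorted from PBS-treated mice of the same experiment, since the cell type entry of these HSC libraries reads HPCs while title, source and description read HSC. Each of 8 markers of stem cells, among them Procr, Slamf1, Hlf and Mecom, was higher in all 8 HSC libraries than in all 6 HPC libraries. Each of 8 markers of progenitors, among them Cd48, Flt3 and Dntt, was higher in all HPC libraries. Dntt, the template-independent DNA polymerase of lymphoid precursors, lay between 0 and 0.262 CPM (counts scaled to a common library size) in ko HSC and between 1414 and 1960 CPM in ko HPC. Slamf1, the surface receptor CD150, lay between 30.4 and 41.8 CPM in ko HSC and between 2.95 and 5.14 CPM in ko HPC. None of the 14 HSC and HPC markers that could be tested differed between ko and wt HSC at the threshold. The HSC libraries held the markers of HSC.

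**Figure D1:**
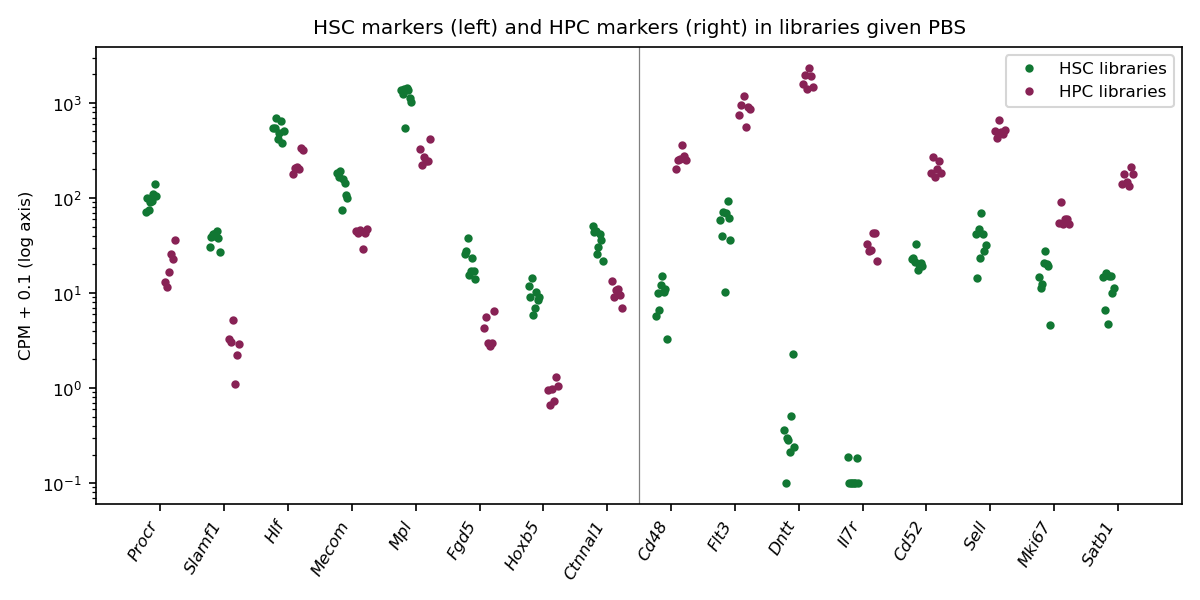
Expression of 8 stem cell markers (left of the line) and 8 progenitor markers (right) in libraries of PBS-treated mice, as CPM + 0.1 on a log axis, 1 point per library, with 8 HSC and 6 HPC libraries. The 2 populations do not overlap for any of the 16 markers.

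The 8 libraries held 22897213 to 36248551 counts, against 13965363 to 18734106 in the untreated HSC libraries, and 15084 genes passed the filter on low counts. Libraries 4 of both genotypes stood apart. Ko 4 lay at 89.2 on the first principal component, which held 30.6% of the variance, while the other 7 lay between -42.7 and 19.4. Its Pfn1, an actin-binding protein, was at 107 CPM against 950 to 1191 CPM elsewhere. Wt 4 held 9401 CPM of the nuclear RNA Malat1, ko 4 held 3048 CPM, and the other 6 held 720 to 1615 CPM. Sex was not balanced: ko 1, ko 3, ko 4 and wt 1 held Xist with almost no Y-linked reads, ko 2, wt 2 and wt 3 held Y-linked reads with almost no Xist, and wt 4 held both. In untreated HSC, ko 1 and ko 4 held mainly Xist, and ko 2, ko 3 and wt 1 mainly Y-linked reads. Untreated wt 2, wt 3 and wt 4 held both, with 60.3 to 83.2 CPM of Xist and 68.1 to 143 CPM of Y-linked genes. No ko HSC library of either experiment held both.

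Knockout HSC after PBS differed from wild type mainly by loss of expression. By edgeR's quasi-likelihood test, 167 genes passed an adjusted p of 0.05, which is 1.11% of the 15084 tested, with 47 higher (0.312%) and 120 lower (0.796%) in ko. For 166 of the 167 called genes the 4 ko libraries did not overlap the 4 wt libraries, the exception being Rhag, an erythroid membrane protein. Calls and overlap rest on the same libraries, so this separation is no separate evidence. Over all tested genes, groups did not overlap for 6.38%. Among the lower genes, 53 fell by a log2 fold change of -2 or beyond, and 26 had a ko mean under 1 CPM. Among the higher genes, 18 rose by a log2 fold change of 2 or more. Nearly all called genes, 165, are protein coding. The called genes lay on all autosomes and on X, with 15 of 748 tested genes on chromosome 6 and 14 of 917 on chromosome 5, which carries Kmt2c. In bulk libraries, fewer cells of a type and less RNA per cell cannot be told apart.

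The count moved with the libraries. Without both libraries 4, 191 genes were called, and without ko 4 alone, 209. Leaving out any other single library gave between 61 and 85 calls, and the covariate of Y-linked expression left 67, of which 18 were higher and 49 lower. Of the 47 called genes named by the rule used here, 18 kept the call in all 19 alternatives, which include leaving out each library. These were Cd96, Il18rap, Hdac9, Cd53, S1pr1, P2ry10, Rgs7bp, Phldb2, Fam198b, Rgcc, Hemgn, Bgn, Hpgds and Slc40a1 among the lower genes, and Gpx8, Gstm2, Serpinh1 and Mt1 among the higher. Under the covariate of Y-linked expression 17 of the 47 lost the call, and 25 lost it without some 1 library.

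Sequences upstream of 4 genes are shown because these genes, 2 lower and 2 higher, had the smallest p after PBS among genes called in the same direction in untreated HSC too. Each is the 250 bases before the RefSeq start of the gene on mouse build GRCm38.p6, on the gene's own strand, 5′ to 3′. They are Cd96 at chr16:46120249-46120498 (minus strand), Fyb at chr15:6579597-6579846 (plus strand), Armh4 at chr14:49783384-49783633 (minus strand) and Gpx8 at chr13:113046389-113046638 (minus strand). Capitals mark exact matches to 7 motifs searched on both strands, and lower case is everything else.
Cd96: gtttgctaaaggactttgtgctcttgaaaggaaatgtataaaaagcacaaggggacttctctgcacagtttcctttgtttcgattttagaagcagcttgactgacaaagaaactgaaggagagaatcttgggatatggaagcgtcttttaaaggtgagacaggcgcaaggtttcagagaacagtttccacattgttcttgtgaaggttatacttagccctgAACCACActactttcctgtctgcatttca
Fyb: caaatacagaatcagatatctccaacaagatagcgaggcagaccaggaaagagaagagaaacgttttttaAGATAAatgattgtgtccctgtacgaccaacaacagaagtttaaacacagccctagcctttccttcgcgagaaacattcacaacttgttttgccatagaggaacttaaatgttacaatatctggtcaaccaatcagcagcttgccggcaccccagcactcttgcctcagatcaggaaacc
Armh4: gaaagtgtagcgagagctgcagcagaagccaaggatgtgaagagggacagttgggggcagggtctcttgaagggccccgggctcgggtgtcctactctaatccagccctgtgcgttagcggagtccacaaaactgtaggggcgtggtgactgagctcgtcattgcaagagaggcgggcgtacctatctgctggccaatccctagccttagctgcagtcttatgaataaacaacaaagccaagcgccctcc
Gpx8: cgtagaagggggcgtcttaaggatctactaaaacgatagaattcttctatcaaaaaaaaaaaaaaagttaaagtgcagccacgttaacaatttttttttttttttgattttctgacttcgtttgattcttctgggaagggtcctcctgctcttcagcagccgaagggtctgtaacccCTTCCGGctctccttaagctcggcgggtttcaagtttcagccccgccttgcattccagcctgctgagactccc
The Cd96 match is the reverse complement of the RUNX motif TGTGGTT, the Fyb match is the GATA motif AGATAA, and the Gpx8 match is the reverse complement of the ETS motif CCGGAAG. The other motifs searched were AP-1 (TGACTCA), the E-box (CAGCTG), the CCAAT-enhancer amino acid response element (TGATGCA) and SP1 and KLF (GGGCGGG), none of which overlaps another in these letters, and Armh4 held none of the 7.

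Across the promoters that could be matched by symbol, taken as windows of 300 bases from 250 before to 50 after the start, the RUNX motif stood in 10.8% of 93 lower genes, 2.78% of 36 higher genes and 3.64% of 10355 tested genes. The GATA motif stood in 11.8% of the lower, 11.1% of the higher and 6.46% of the tested promoters. The ETS motif stood in 3.23% of the lower, 13.9% of the higher and 18.4% of the tested promoters. RUNX and ETS factors are central regulators of blood cells. SP1 and KLF letters stood in 28.0%, 38.9% and 47.1%, E-boxes in 21.5%, 16.7% and 14.8%, AP-1 in 5.38%, 8.33% and 3.39%, and the amino acid response element in 3.23%, 5.56% and 1.76%, each in the order lower, higher and tested. These shares describe letters in fixed windows and were not tested.

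Kmt2c itself (chr5:25271798-25498783, minus strand, GRCm38 by GENCODE M21) was at 18.9, 13.8, 25.9 and 16.3 CPM in ko libraries 1 to 4 and at 59.1, 74.0, 40.8 and 45.2 CPM in wt libraries 1 to 4. The groups did not overlap, and every ko library kept some Kmt2c reads. The log2 fold change was -1.55 ± 0.26 (SE, adjusted p = 0.0153 by edgeR), and the call was lost when any 1 of 4 libraries was left out (largest adjusted p = 0.0798). The sources used here do not name the floxed exons, so reads from exons that remain are counted as well. Of 21 H3K4 methyltransferases and partners, Kmt2c was the 1 gene called, or 4.76%, where 1.11% of all tested genes were called. Kmt2d, the alternative core of the complex, had a log2 fold change of -0.19 (adjusted p = 0.942 by edgeR). Kdm6a, the demethylase subunit, had a log2 fold change of 0.25 (adjusted p = 0.928).

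Cd96, Il18rap and Cd53 were among the lower genes with the largest fold changes. Cd96 (chr16:46035657-46120251), an adhesion receptor of the immunoglobulin family best known from T and NK cells, was at 3.45, 2.23, 2.79 and 2.78 CPM in ko and at 26.5, 32.2, 41.0 and 28.1 CPM in wt. Every wt library exceeded every ko library several times over, and the log2 fold change was -3.51 ± 0.25 (adjusted p = 7.92e-05, the smallest in the comparison). Il18rap (chr1:40515362-40551705), the accessory chain of the IL-18 receptor, was at 1.36, 0.835, 1.95 and 0.592 CPM in ko and at 25.1, 19.3, 14.4 and 21.7 CPM in wt (log2 fold change -4.07 ± 0.38, adjusted p = 0.000572). It was the 1 gene called among 14 tested members of the IL-1 and IL-18 receptor family, or 7.14%, where 1.11% of all tested genes were called. Il1r1, the receptor for IL-1, was at 1.60 to 4.20 CPM in ko and 4.48 to 9.50 CPM in wt without overlap and did not pass (log2 fold change -1.10, adjusted p = 0.256). Cd53 (chr3:106759921-106790149), a tetraspanin of white blood cells, was at 19.5, 5.98, 17.0 and 8.96 CPM in ko and at 116, 126, 113 and 84.9 CPM in wt (log2 fold change -3.10 ± 0.35, adjusted p = 0.00175).

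Of 11 tested receptors for lysophospholipids and sphingosine phosphate, S1pr1, P2ry10 and P2ry10b were lower and 0 were higher, where 0.796% of all tested genes were called lower. The list's median was -0.15, and 4 of the 11 were above 0. S1pr1 (chr3:115710433-115715072), which senses sphingosine 1-phosphate and guides cells from tissue into the blood, was at 6.43, 3.86, 5.50 and 1.44 CPM in ko and at 46.0, 41.0, 53 and 38.1 CPM in wt. The groups lay far apart, with a log2 fold change of -3.37 ± 0.38 (adjusted p = 0.00175 by edgeR). P2ry10 (chrX:107088492-107104974), a lysophosphatidylserine receptor, was at 1.19, 0.278, 0.721 and 0.111 CPM in ko and at 10.8, 18, 10.6 and 16.4 CPM in wt (log2 fold change -4.61 ± 0.54, adjusted p = 0.00175). Its neighbour and close paralog P2ry10b also fell (log2 fold change -2.48 ± 0.39, adjusted p = 0.00940), and reads of the 2 paralogs could be shared by the counting. P2ry10b lost its call under the Y-linked covariate (adjusted p = 0.0772).

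Hdac9, Rgs7bp, Rgcc, Phldb2 and Fam198b were others with large decreases. Hdac9 (chr12:34047580-34917095), a class II histone deacetylase, was at 0.809, 1.11, 0.841 and 0.296 CPM in ko and at 8.63, 11.7, 12.3 and 9.56 CPM in wt, with a wide gap between the groups. Its log2 fold change was -3.77 ± 0.38 (adjusted p = 0.000794). It was the 1 gene called among 11 class I and II histone deacetylases, or 9.09%, where 1.11% of all tested genes were called. Rgs7bp, a membrane anchor for regulators of G protein signalling, was at 0.452 to 2.33 CPM in ko and 10.3 to 19.2 CPM in wt (log2 fold change -3.69 ± 0.44, adjusted p = 0.00200). Rgcc, a regulator of cell cycle kinases induced by complement, was at 0.296 to 2.68 CPM in ko and 10.7 to 24.7 CPM in wt (log2 fold change -3.46 ± 0.51, adjusted p = 0.00635). Phldb2, which anchors microtubules at the cell cortex, was at 0.420 to 1.45 CPM in ko and 6.02 to 8.80 CPM in wt (log2 fold change -3.14 ± 0.40, adjusted p = 0.00249). Fam198b, a glycoprotein of the Golgi, was at 0, 0.0695, 0.601 and 0.222 CPM in ko and at 8.63, 6.64, 13.7 and 6.81 CPM in wt (log2 fold change -5.22 ± 0.67, adjusted p = 0.00276).

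Hemgn, Bgn and Gata3 fell by smaller amounts. Hemgn (chr4:46393989-46413506), a nuclear protein of blood progenitors, was at 15.1, 11.9, 15.2 and 14.6 CPM in ko and at 47.0, 51.6, 58.5 and 33.8 CPM in wt (log2 fold change -1.75 ± 0.22, adjusted p = 0.00249). The 4 ko values lay within a narrow band, and the lowest wt library still lay above them. Bgn, which encodes the matrix proteoglycan biglycan, was at 31.0 to 44.7 CPM in ko and 96.2 to 131 CPM in wt (log2 fold change -1.68 ± 0.20, adjusted p = 0.00175). Gata3, a transcription factor of T cells that is also expressed in stem cells, was at 38.9, 40.3, 34.5 and 31.7 CPM in ko and at 78.8, 73.1, 70.4 and 64.2 CPM in wt (log2 fold change -0.98 ± 0.18, adjusted p = 0.0225). The Gata3 groups do not overlap, but the call was lost under the Y-linked covariate (adjusted p = 0.111) and in 6 of the 8 fits that leave out 1 library. Gata3 was the 1 gene called among 13 tested members of the list of multipotent and lymphoid-primed progenitor genes. This is 7.69%, where 1.11% of all tested genes were called.

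**Figure D2:**
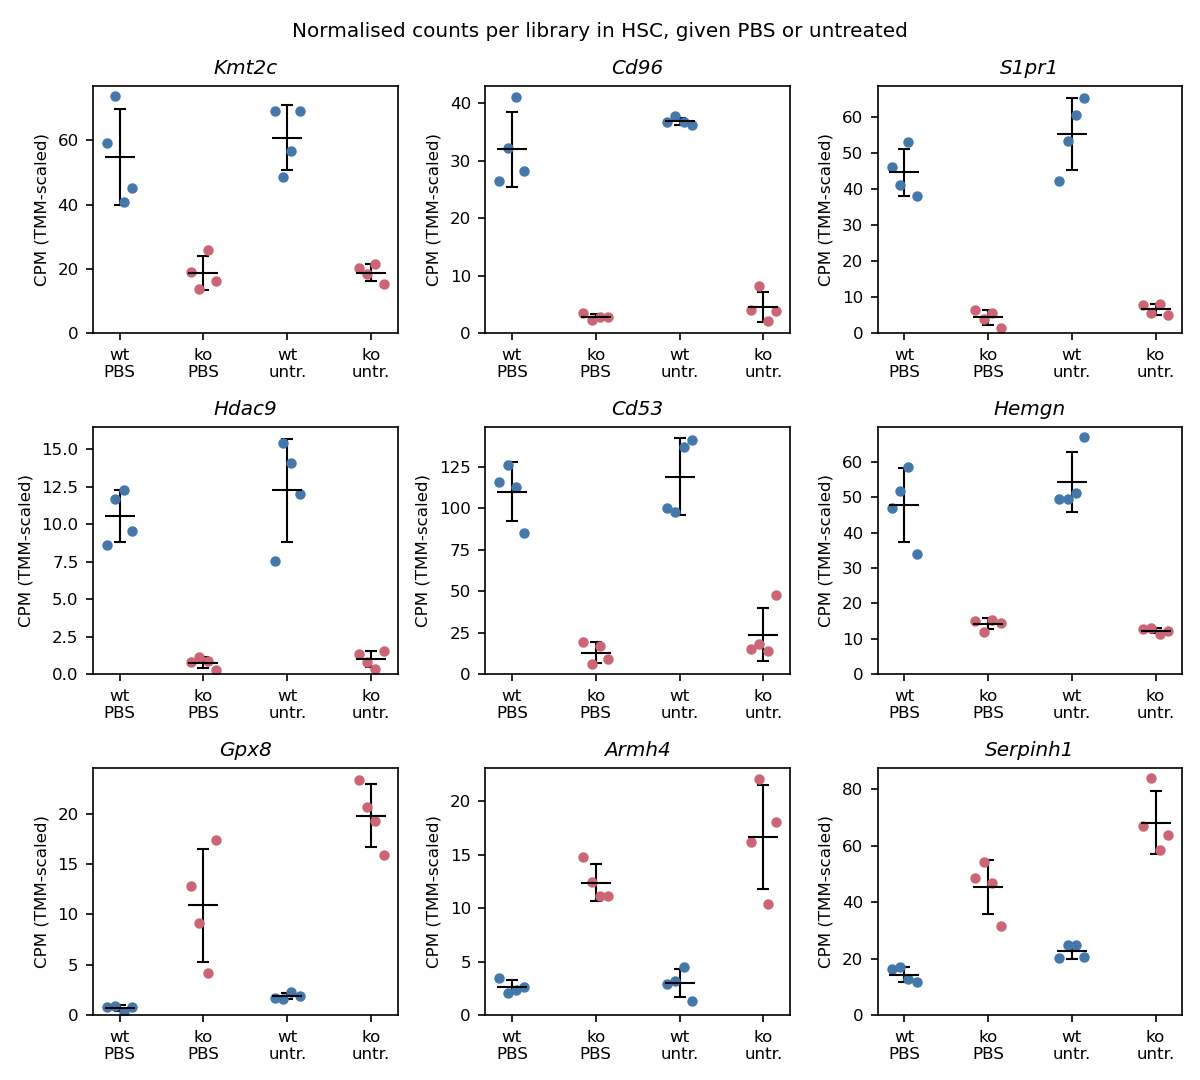
CPM after TMM scaling for 9 genes in HSC of PBS-treated and untreated (untr.) mice. Points are libraries (4 per group), the horizontal line is the mean and the bars are ± SD, and each panel has its own linear axis from 0. In all 9 panels the ko and wt libraries of the same experiment do not overlap. For the genes named by fold change, the naming rule required this after PBS.

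Of 20 tested genes that fold and modify collagen in the endoplasmic reticulum, 3 rose and 0 fell, where 0.312% of all tested genes were called higher, with a list median log2 fold change of 0.46 against 0.012 over all tested genes. Serpinh1 (chr7:99345376-99353239), the collagen chaperone HSP47, was at 48.6, 54.3, 46.8 and 31.6 CPM in ko and at 16.3, 16.9, 12.6 and 11.6 CPM in wt (log2 fold change 1.66 ± 0.23, adjusted p = 0.00415 by edgeR). Fkbp10, a prolyl isomerase that acts on collagen, was at 21.2, 26.8, 21.1 and 12.9 CPM in ko and at 6.93, 7.55, 6.51 and 3.98 CPM in wt (log2 fold change 1.71 ± 0.28, adjusted p = 0.0141). In both genes library 4 was the lowest of each genotype, and the genotypes did not overlap, while Fkbp10 lost the call in 2 of the 8 fits without 1 library. Gpx8 (chr13:113042753-113046410), a peroxidase of the endoplasmic reticulum, was at 12.8, 9.15, 4.20 and 17.4 CPM in ko and at 0.797, 0.877, 0.277 and 0.803 CPM in wt (log2 fold change 3.99 ± 0.49, adjusted p = 0.00239). Col1a1, a chain of fibrillar collagen itself, lay between 0.0695 and 1.02 CPM in ko and between 0.153 and 0.763 CPM in wt. The fold changes of Plod2, a lysyl hydroxylase, and of P4ha1, a prolyl hydroxylase, were -0.20 and -0.18 on the log2 scale (adjusted p = 0.943 and 0.934).

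Gstm2 and Mt1 were also among the higher genes. Gstm2, a glutathione transferase of the mu class, was at 26.5, 37.0, 23.7 and 41.7 CPM in ko and at 8.87, 6.27, 11.3 and 7.84 CPM in wt (log2 fold change 1.91 ± 0.26, adjusted p = 0.00382). Mu-class transferases are similar in sequence, and reads could be shared between them. Mt1, a metallothionein that binds zinc and copper, was at 33.1, 33.1, 23.0 and 51.4 CPM in ko and at 8.49, 4.69, 10.1 and 9.83 CPM in wt (log2 fold change 2.08 ± 0.31, adjusted p = 0.00635). Both genes were higher in all 4 ko libraries than in any wt library, which the rule that named them required. Cdkn2c, the p18 inhibitor of the G1 kinases CDK4 and CDK6, was at 12.3 to 22.7 CPM in ko and 6.04 to 9.45 CPM in wt (log2 fold change 1.21 ± 0.25, adjusted p = 0.0413). Of 19 tested cell cycle inhibitors it was the 1 gene called, or 5.26%, where 1.11% of all tested genes were called. It lost the call in 6 of the 8 fits without 1 library and under the covariate of Y-linked expression (adjusted p = 0.123).

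Other named increases were those of Armh4, Ramp2, Fez1, Evc, Ltbp4, Flrt3, Map1b and Tceal3. Armh4 (chr14:49675952-49783383), a transmembrane protein, was at 14.8, 12.4, 11.1 and 11.2 CPM in ko and at 3.47, 2.09, 2.33 and 2.64 CPM in wt (log2 fold change 2.23 ± 0.26, adjusted p = 0.00175, the smallest among the higher genes). Ramp2, which pairs with the calcitonin-like receptor to bind adrenomedullin, was at 11.5 to 14.6 CPM in ko and 0.243 to 2.86 CPM in wt (log2 fold change 2.90 ± 0.50, adjusted p = 0.0169). Fez1, an adaptor of kinesin transport, was at 7.78 to 20.2 CPM in ko and 1.97 to 4.05 CPM in wt (log2 fold change 2.43 ± 0.36, adjusted p = 0.00648). Evc, a ciliary component of Hedgehog signalling, and Ltbp4, which binds latent TGF-beta in the matrix, rose by log2 fold changes of 2.13 ± 0.39 and 2.02 ± 0.40 (adjusted p = 0.0225 and 0.0327). Flrt3, Map1b and Tceal3 rose by 1.95 ± 0.40, 1.77 ± 0.36 and 1.88 ± 0.41 on the same scale (adjusted p = 0.0394, 0.0387 and 0.0498). These 5 genes lost the call in 4 to 7 of the 8 fits without 1 library and Ramp2 in 3, and Ltbp4, Map1b and Tceal3 also under the Y-linked covariate (adjusted p = 0.130, 0.127 and 0.0640).

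Tetraspanins, which organise membrane receptors, moved both ways: of 22 tested, Cd53, Tspan2 and Tspan8 fell and Tspan7 rose. Over all tested genes, 0.796% were called lower and 0.312% higher. Tspan2 was at 0.518 to 2.26 CPM in ko and 5.90 to 11.9 CPM in wt (log2 fold change -2.58 ± 0.43, adjusted p = 0.0141). Tspan8 was at 0.781 to 2.43 CPM in ko and 5.51 to 6.87 CPM in wt (log2 fold change -2.09 ± 0.36, adjusted p = 0.0169). Tspan7 was at 4.85 to 7.62 CPM in ko and 0.843 to 2.30 CPM in wt (log2 fold change 1.76 ± 0.35, adjusted p = 0.0362). The groups did not overlap in any of these genes, and Tspan7, Tspan8 and Tspan2 lost the call in 7, 3 and 1 of the 8 fits without 1 library. Under the Y-linked covariate Tspan7 and Tspan8 did not pass (adjusted p = 0.108 and 0.0557). Tspan12 was at 5.15 to 18.2 CPM in ko and 2.64 to 6.76 CPM in wt and did not pass (log2 fold change 1.51, adjusted p = 0.125).

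Genes of other blood and marrow cells were read with lists of their markers. Of 15 tested macrophage markers, 6 were lower in ko and 0 higher, the median log2 fold change was -1.82, and none of the 15 was above 0, where 0.796% of all tested genes were called lower. Macrophages of the marrow engulf dying cells and recycle haem iron. Slc40a1, the iron exporter ferroportin, was at 10.2, 6.40, 11.6 and 6.18 CPM in ko and at 34.6, 27.3, 32.4 and 29.8 CPM in wt (log2 fold change -1.85 ± 0.25, adjusted p = 0.00369). Vcam1, an adhesion molecule, was at 7.28, 3.27, 3.84 and 4.15 CPM in ko and at 25.1, 19.5, 22.5 and 14.2 CPM in wt (log2 fold change -2.13 ± 0.30, adjusted p = 0.00451). Both genes separated the genotypes completely. The receptor kinase Axl, the complement subunit C1qb, the haemoglobin scavenger receptor Cd163 and the mannose receptor Mrc1, the last named after its values were seen, also fell, by log2 fold changes of -1.20 ± 0.21, -1.89 ± 0.38, -1.05 ± 0.22 and -1.86 ± 0.40 (adjusted p = 0.0205, 0.0357, 0.0394 and 0.0486). The calls of Axl and Cd163 were lost under the Y-linked covariate (adjusted p = 0.0972 and 0.212), and those of Axl, C1qb and Cd163 in 5, 6 and 7 of the 8 fits without 1 library. Hmox1, haem oxygenase, was at 4.93 to 22.2 CPM in ko and 28.1 to 46.8 CPM in wt, without overlap and without passing the test (log2 fold change -1.68, adjusted p = 0.0753). It passed in 8 of the 19 alternatives.

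The summed level of the 16 macrophage markers was 51.3 to 69.4 CPM in ko and 155 to 184 CPM in wt. Adgre1, the macrophage marker F4/80, was at 0.170, 0.487, 0.901 and 0.481 CPM in ko and at 3.33, 2.83, 2.33 and 0.536 CPM in wt, with overlap (adjusted p = 0.192). The phagocytic receptors Mertk and Timd4 had mean levels under 1 CPM in both genotypes, and Marco was at 0 in all 4 ko libraries and 3 of 4 wt libraries. Whether the lower sums come from macrophage RNA or from stem cells was not tested. Without both libraries 4 the list still had 6 lower genes and a median of -1.84, and with the Y-linked covariate 3 were lower and the median was -1.93. Leaving out ko 2, ko 3, wt 1, wt 2 or wt 3 left 2 called genes each and wt 4 left 3, with medians between -1.83 and -1.44.

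**Figure D3:**
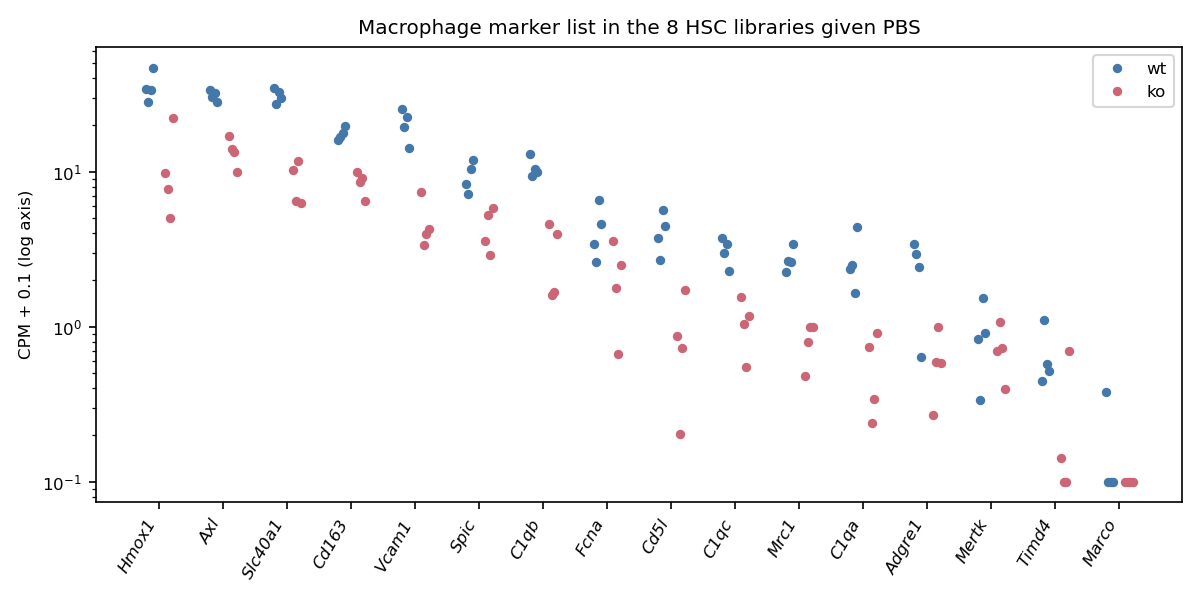
The 16 macrophage markers in the 8 HSC libraries after PBS, as CPM + 0.1 on a log axis, 1 point per library and genes ordered by mean level. Ko points lie below wt points without overlap for Slc40a1, Vcam1 and Hmox1, and the last genes, Mertk, Timd4 and Marco, lie near 1 CPM or at 0.

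Of 22 tested megakaryocyte and platelet genes, some of which stem cells also express, 3 were lower and 0 higher, where 0.796% of all tested genes were called lower, and the list's median log2 fold change was -0.59. Mmrn1, the platelet protein multimerin, was at 147, 112, 94.0 and 30.8 CPM in ko and at 325, 373, 354 and 253 CPM in wt (log2 fold change -1.77 ± 0.37, adjusted p = 0.0425). The call was lost under the Y-linked covariate (adjusted p = 0.174) and in 6 of the 8 fits without 1 library. Ko 4 was the lowest library, and the other 3 ko libraries still lay below all wt libraries. Gp1ba, a chain of the von Willebrand factor receptor, was at 3.00 to 5.62 CPM in ko and 11.4 to 20.5 CPM in wt (log2 fold change -1.75 ± 0.28, adjusted p = 0.0101, with the call lost only without ko 2). F2rl2, a thrombin receptor, fell too (log2 fold change -1.31 ± 0.27, adjusted p = 0.0387), and its call was lost in all 8 fits without 1 library and under the covariate (adjusted p = 0.274). Itga2b, the platelet integrin CD41, was at 21.0 to 58.8 CPM in ko and 47.9 to 114 CPM in wt, with overlap, and did not pass (log2 fold change -1.0, adjusted p = 0.293). Without both libraries 4, 5 members were lower and the median was -0.90, while without ko 2 none was called and with the Y-linked covariate 1 was.

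In each of the other lineage lists at most 2 genes passed, all lower in ko, where 0.796% of all tested genes were called lower. Among 19 tested erythroid genes, Hemgn and Rhag were lower, 9 of the 19 were above 0 and the median was -0.25. Rhag was at 1.66, 0.556, 2.28 and 1.11 CPM in ko and at 10.8, 18.2, 15.2 and 2.07 CPM in wt, so that wt 4 lay inside the ko range (log2 fold change -3.04 ± 0.60, adjusted p = 0.0327). Its call was lost in 12 of 19 alternatives, among them the Y-linked covariate (adjusted p = 0.111) and 7 of the 8 fits without 1 library. Among 7 tested mast cell and basophil genes, Hpgds, a prostaglandin D synthase, and Clnk, an adaptor of immune receptors, were lower by log2 fold changes of -3.00 ± 0.42 and -2.82 ± 0.53 (adjusted p = 0.00404 and 0.0275), and Clnk lost the call in 5 of the 8 fits without 1 library. Pecam1, an adhesion molecule of endothelium and blood cells, and Itgb2, the common beta chain of white blood cell integrins, fell by -1.28 ± 0.26 and -1.29 ± 0.26 (adjusted p = 0.0361 and 0.0387), each without overlap. Both calls were lost under the Y-linked covariate (adjusted p = 0.141 for Pecam1 and 0.147 for Itgb2) and in 6 of the 8 fits without 1 library. Pecam1 and Bgn were the 2 genes called among 12 tested stromal and endothelial genes, and Itgb2 the 1 called among 16 integrins. Of 25 tested granulocyte and monocyte genes 0 passed, and the median was -0.51. Of the 25, 11 had an unadjusted p under 0.05, where 8.03% of all tested genes reached it.

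Among 30 stem cell genes 1 was called, or 3.33%, where 1.11% of all tested genes were called. It was Trpc6, a calcium channel, at 36.2, 38.6, 36.8 and 25.9 CPM in ko and 58.1, 73.7, 64.5 and 79.8 CPM in wt (log2 fold change -1.0 ± 0.20, adjusted p = 0.0361). The list's median was 0.14, and 6 of the 30 had an unadjusted p under 0.05, where 8.03% of all tested genes did. The Trpc6 call was lost in 7 of the 8 fits without 1 library and under the Y-linked covariate (adjusted p = 0.228). Procr, a receptor used to sort stem cells, had a log2 fold change of -0.36 ± 0.23 (adjusted p = 0.811), Hlf, a transcription factor of stem cells, 0.15 ± 0.21 (0.931) and Mecom, another, 0.28 ± 0.23 (0.883). None of 30 mitosis genes (median -0.23), 34 DNA replication genes (median -0.06), 30 interferon-stimulated genes (median -0.28) or 19 immediate early genes (median -0.24) was called. At an unadjusted p under 0.05 these lists held 0, 0, 3 and 2 genes, where 8.03% of all tested genes reached it. Cytosolic ribosomal proteins were above 0 in 74 of 77 genes (median 0.26) and cholesterol synthesis genes in 20 of 20 (median 0.31), with 0 called in either list and 0 at an unadjusted p under 0.05. The summed ribosomal protein level was highest in ko 4 and wt 4.

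**Figure D4:**
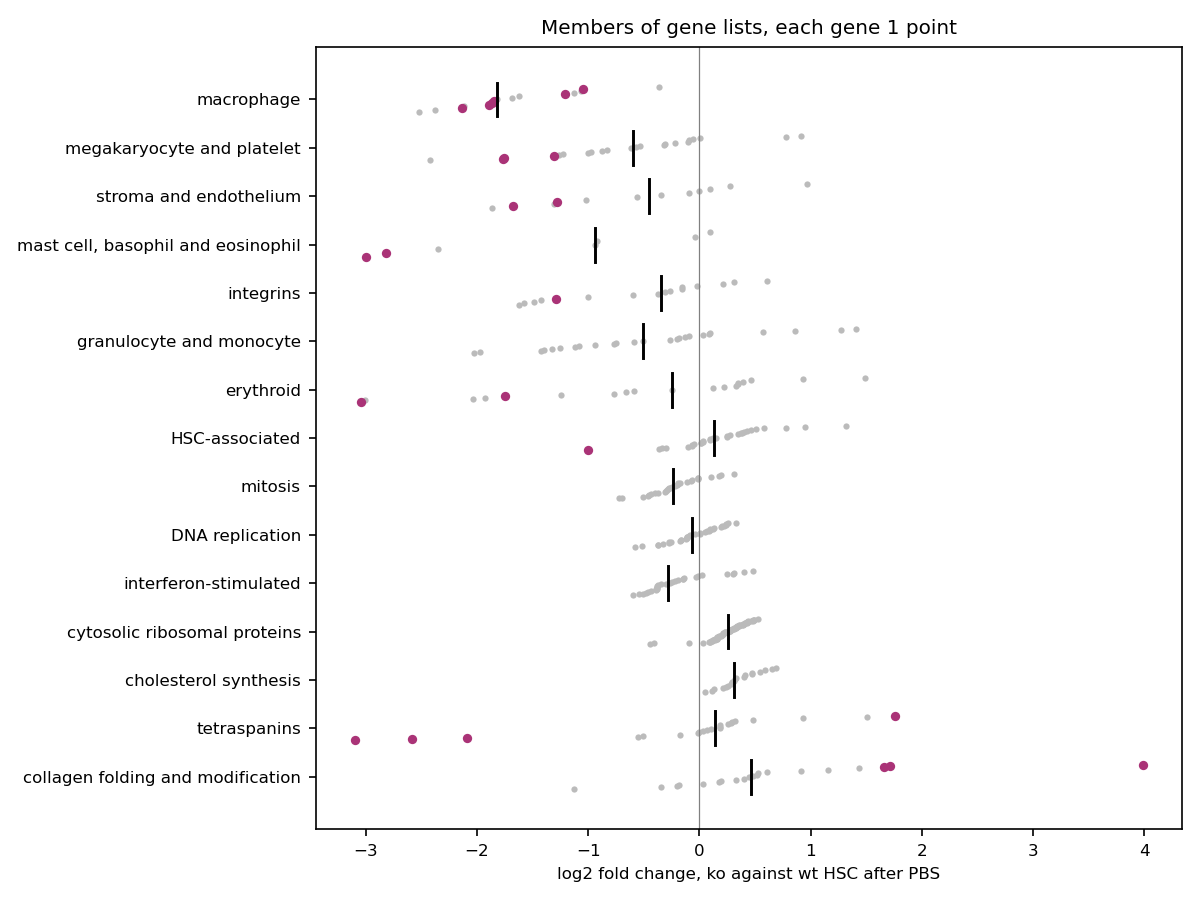
Log2 fold change of ko against wt HSC after PBS for the tested members of 15 gene lists. Each point is 1 gene, coloured where edgeR's adjusted p is under 0.05, and the black bar is the list's median. The macrophage list lies wholly below 0 with a median of -1.82, and the collagen folding list has the highest median of the lists shown, 0.46.

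The contrast was then set beside the same contrast in untreated HSC, whose libraries share no sample with these. There, 199 of 13392 tested genes were called, or 1.49%, with 60 higher (0.448%) and 139 lower (1.04%), and the groups did not overlap for 7.44% of the tested genes. Of the 195 of them that were tested in both, all 195 had the same sign after PBS, 169 (86.7%) also had an unadjusted p under 0.05, and 92 (47.2%) were called. Among all 13191 genes tested in both, 57.6% had the same sign, 7.35% had the same sign with an unadjusted p under 0.05 after PBS, 1.25% were called after PBS and 1.48% were called untreated. An unadjusted p under 0.05 after PBS, with either sign, was reached by 8.7% of them. Of the 165 genes called after PBS and tested in both, 164 had the same sign in untreated HSC and 92 (55.8%) were called there. The 1 exception was Pde8a, a cyclic AMP phosphodiesterase, named after its values were seen, with log2 fold changes of 1.56 after PBS and -0.07 untreated. Of the 92 genes called in both, 22 were higher and 70 lower. Without both libraries 4, 100 genes were called in both, leaving out 1 library of either experiment gave 44 to 107, and the Y-linked covariate gave 41.

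Single genes were compared with the untreated libraries. Hdac9 was at 0.350 to 1.55 CPM in untreated ko and 7.51 to 15.4 CPM in untreated wt, S1pr1 at 4.93 to 8.18 and 42.2 to 65.2 CPM, and Serpinh1 at 58.3 to 83.9 and 20.1 to 24.9 CPM. Their log2 fold changes in untreated HSC were -3.59, -3.07 and 1.60, beside -3.77, -3.37 and 1.66 after PBS. By contrast Phldb2, Cldn10, a tight junction protein, and Gp5 had log2 fold changes of -6.66, -4.03 and -3.51 untreated beside -3.14, -1.94 and -1.27 after PBS. A panel of 29 genes had been named in untreated HSC by an earlier account of these data. In untreated HSC, 8 of them were called higher and 19 lower. All 29 had the same sign after PBS, 27 had an unadjusted p under 0.05, 17 were called and 21 did not overlap. Over all tested genes the shares were 8.03% for the unadjusted p, 1.11% for the call and 6.38% for no overlap. Of all genes tested in both, 57.6% had the same sign. The change was smaller after PBS in 23 of the 29, which had been chosen in untreated HSC. Members of the panel that did not pass after PBS included the platelet glycoproteins Gp5 (adjusted p = 0.512) and Gp9 (0.185), the stress gene Asns, an asparagine synthetase (log2 fold change 0.88, adjusted p = 0.0929), and Txnip, an inhibitor of thioredoxin. Txnip was at 514, 1097, 620 and 513 CPM in ko and 726, 657, 1075 and 727 CPM in wt after PBS, with overlap, and at 664 to 805 and 1082 to 1371 CPM in untreated HSC. Nr4a1, an immediate early transcription factor, had a log2 fold change of 0.03 after PBS (adjusted p = 0.990).

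**Figure D5:**
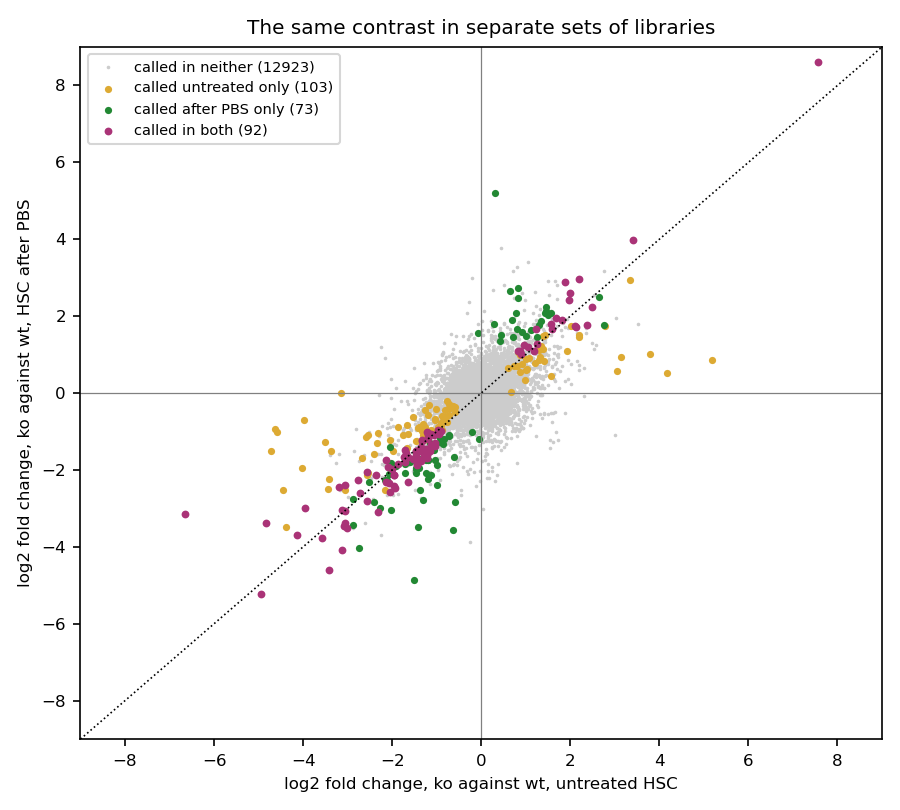
Log2 fold change of ko against wt in untreated HSC (x axis) and in HSC after PBS (y axis) for the 13191 genes tested in both, with the line of equal change dotted. The 92 genes called in both lie in the lower left and upper right quadrants, and across all genes Pearson's r is 0.546 and Spearman's rho 0.286, given as a description.

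Sizes were similar, with a tendency to smaller values after PBS among genes chosen in untreated HSC. The median ratio of the log2 fold change after PBS to that in untreated HSC was 0.879 over the 195 genes (quartiles 0.646 and 1.09), and 124 of them were smaller after PBS. These genes were selected by their untreated values. A test of the difference between the 2 contrasts over all 16 libraries called 0 of 15477 genes by edgeR (0%), with 549 (3.55%) at an unadjusted p under 0.05, and also 0 by DESeq2 and by limma voom, with 646 and 603 at an unadjusted p under 0.05. On simulated counts with the depths of these libraries, this test recovered 92% of 100 genes whose contrasts differed by a log2 of 2. It recovered 11% of 100 that differed by a log2 of 1, over 15030 genes. The simulation gave every gene the same spread, below the common spread of the 16 libraries. It changed only well-counted genes and held no outlying library, so recovery in the real data may be lower. Differences below and above a log2 of 2 could therefore have gone undetected. Phldb2, Gp5 and Cldn10 had differences of 3.55 ± 0.84, 2.25 ± 0.76 and 2.10 ± 0.70 (SE) and were not called. The PBS treatment and the experiment, with its own depth, cannot be told apart.

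Mt1 and Vcam1 illustrate genes that were called after PBS and not in untreated HSC. Untreated Mt1 was at 32.6 to 44.6 CPM in ko and 17.4 to 30.7 CPM in wt (log2 fold change 0.78, adjusted p = 0.118). These wt values lay above those after PBS, but CPM were scaled within each experiment's own fit, so levels are not directly comparable. Untreated Vcam1 was at 0.740 to 10.5 CPM in ko and 6.53 to 18.9 CPM in wt, with overlap (log2 fold change -1.14, adjusted p = 0.560). The difference between the contrasts was not called for either gene. Phldb2 was the only gene called by the test of the difference in any fit run: without untreated ko 4 its difference was 7.37 on the log2 scale (adjusted p = 0.0314), and with all libraries 3.55 (adjusted p = 1.00). Untreated Phldb2 was at 0 in 3 ko libraries and 0.338 CPM in ko 4.

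A few genes were on in 1 genotype and without counts in the other; they were named after their values were seen. Gprin3 had 0 counts in the 4 ko libraries and 295 in the 4 wt libraries, at 2.50, 2.80, 1.69 and 3.02 CPM, which is at least 91.7-fold lower against a floor of 3 counts over the ko group (adjusted p = 0.00175 by edgeR). Lypd6b had 0 and 221 counts and was at least 68.7-fold lower (adjusted p = 0.00249). In the opposite direction, Sva had 189 counts in ko, at 1.62, 1.56, 1.74 and 1.78 CPM, and 0 in wt, at least 67.6-fold higher (adjusted p = 0.00249). Sva was also at 0 in all 4 untreated wt libraries and at 0.925 to 2.16 CPM in the untreated ko libraries. Gprin3 and Lypd6b were too low to be tested in untreated HSC, where Gprin3 had 0 counts in ko and 37 in wt, and Lypd6b 3 and 83. The limits behind these folds cover counting error only.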

How the data were processed

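Counts per gene were used as deposited. The authors aligned reads with STAR 3.0.4 and counted them with featureCounts 1.4.5, per the submitters' processing notes. The sources used here name neither build nor strandedness, so overlapping and antisense genes are not separated. Of 41388 gene IDs, 40340 matched GENCODE M21 (GRCm38), which gave symbols and coordinates. The other IDs took 0.143% of reads in experiment 1 and 0.113% in experiment 2, and 3 rows that are not mouse genes were left out.

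Genes were filtered (minimum count 10, total 15), scaled by TMM and tested with edgeR 4.0.16 (R 4.3.3, quasi-likelihood test, Benjamini-Hochberg adjustment over all tested genes) on the 4 ko and 4 wt libraries. Untreated HSC had their own fit, and the difference was an interaction over 16 libraries. CPM are TMM-scaled within a fit. Alternatives were DESeq2 1.42.0, limma 3.58.1 voom, RLE scaling, no filter, a replicate block, a Y-linked covariate, wider fits and each library left out. Leaving out both libraries 4 was chosen after seeing the data. The tests were checked on simulated data.

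Named genes were Kmt2c, up to 10 each way by fold change (called, protein coding, 5 CPM or more, no overlap), up to 4 called members of each of 38 lists, up to 6 each way called in both experiments, up to 6 called in the difference, an earlier panel and the sort markers. Members and lists were chosen with earlier results of these data known.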

Additional observations from a re-analysis of the deposited data

Results flagged for a closer look

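In 5 of 134 groups of 4 libraries, the highest or lowest library stood farther from the nearest other than Dixon's limit allows, and chance gives about 1 such group in 20. Malat1, a nuclear RNA, was highest at 3048 CPM in ko 4 among the ko libraries and at 9401 CPM in wt 4 among the wt libraries. Map1b, a microtubule-associated protein, was lowest at 5.59 CPM in ko 4, which still lay above the highest wt library. Gpx8 was lowest at 0.277 CPM in wt 3, and Txnip was highest at 1075 CPM in the same library.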

How the results depend on the processing

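After PBS, 167 genes were called by edgeR, 421 by DESeq2 (166 higher, 255 lower), 286 by limma voom (112 higher, 174 lower), 253 in 1 fit with the untreated libraries (92 higher, 161 lower) and 67 with the Y-linked covariate (18 higher, 49 lower). Leaving out 1 library gave 61 to 209. RLE scaling gave 169, no filter 247, the wider fits 132, 217 and 136, and fits without both libraries 4 191. For untreated HSC, DESeq2 called 467 and voom 388 in place of 199, and leaving out 1 library gave 92 to 211, with 111 without ko 1, 119 without wt 3 and 92 without wt 4. Genes called in both numbered 92, or 227 by DESeq2, 181 by voom and 41 with the covariate, and 44 to 107 without 1 library. The test of the difference called 0 genes in each alternative except that leaving out 1 library gave 0 to 1. The cause of these shifts was not tested; leaving out a library also leaves fewer samples.

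Whether the replicate numbers pair the libraries was not settled. Deviations of same-numbered ko and wt libraries correlated at 0.215, 0.0618, -0.196 and 0.289 after PBS. There ko 1 and ko 4 correlated best with the wt library of their own number, and ko 2 and ko 3 did not. In untreated HSC the values were -0.0616, 0.191, -0.152 and 0.375, and ko 2 and ko 4 correlated best with their own number. With the replicate block, 157 genes were called after PBS, 177 untreated, 0 for the difference and 92 in both, and 6 of 47 called named genes lost the call.

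Of the 47 called named genes, 25 lost the call without some 1 library and 17 with the Y-linked covariate. No called gene changed sign. Among the 12 named genes not called, Hmox1 gained a call in 8 of the 19 alternatives, Tspan12 in 7, Asns in 5 and Gp9 in 4. Itga2b and Cldn10 gained it in 2 each, and the others in 0. Nr4a1, not called, ranged from -0.19 to 0.31 without 1 library, with -0.04 without ko 2, -0.19 without ko 3 and -0.18 without wt 1 or wt 4. Txnip, not called, turned to 0.0116 with the covariate.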

Other observations

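Called genes that lie next to each other in the order of tested genes were listed after the calls were seen. There were 7 such pairs among the 167 called genes, involving 12 genes, and 6 pairs moved in the same direction, where 120 of the 167 called genes were lower. One of the 6, Clec4e and Cd163, lies 1015 kb apart. The ciliary genes Evc and Evc2 on chromosome 5, read from opposite strands 1.61 kb apart, both rose (log2 fold changes 2.13 and 1.65). Pecam1 and Milr1, an inhibitory receptor of mast cells, lie 0.598 kb apart on opposite strands of chromosome 11 and both fell (-1.28 and -2.08). The C-type lectins Clec4d and Clec4e, 6.52 kb apart on chromosome 6, both fell (-1.82 and -3.06), as did the peptidases Dpp4 and Fap on chromosome 2 (-1.08 and -4.87). P2ry10 and P2ry10b, 44.0 kb apart on X, fell as described. Cd96 and Phldb2 on chromosome 16 both fell but are separated by 1 tested gene, Plcxd2, whose log2 fold change was -0.78 ± 0.46 (adjusted p = 0.769 by edgeR).

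On chromosome 5, a stretch 11.5 Mb from Kmt2c (chr5:37028335-38876812) held 13 tested genes, of which 5 were called after PBS: Jakmip1 and Clnk fell, and Evc, Evc2 and Nsg1 rose. Over all tested genes, 1.11% were called. The ends of the stretch were set at called genes after their values were seen, and 1 of the 5 was called in untreated HSC. Nsg1, a protein of endosomes in neurons, was at 45.5, 39.6, 37.8 and 51.8 CPM in ko and 21.0, 17.0, 20.7 and 23.5 CPM in wt (log2 fold change 1.09 ± 0.20, adjusted p = 0.0225).

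Stx1a, a membrane fusion protein, was at 1.23 to 1.53 CPM in the 4 ko libraries after PBS and had 4 counts in all 4 wt libraries together (log2 fold change 5.21 ± 0.78, adjusted p = 0.00716). In untreated HSC it was at 0.679 to 1.19 CPM in ko, at 1.88 and 1.19 CPM in wt 2 and wt 3, and at 0 in wt 1 and wt 4 (log2 fold change 0.30, adjusted p = 0.935). The difference between the contrasts had an unadjusted p of 0.00278 and was not called (adjusted p = 1.00).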
